A study of Mus musculus with 6 samples.

Results

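The genes described here are 43 members of the amino acid response that the transcription factor ATF4 controls, together with tRNA synthetases that belong to it. They were taken by symbol from the 21960 genes of the deposited counts of mock and p140Cap TuBo cells. In the counts, 42 stood under the symbol used here and Mars1 under its former symbol Mars, matched by its Ensembl identifier. They were divided by role into 10 stress regulators and effectors, 13 genes of amino acid and one-carbon synthesis, 8 amino acid transporters and 12 cytosolic tRNA synthetases.

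TuBo cells derive from a BALB/c-MMTV-NeuT mouse mammary tumor, in which the MMTV promoter drives an activated rat Her2 (Neu) transgene, so that both groups carry this oncogene. The mock group is the control line with wt genotype in the labels (3 libraries), and the p140Cap group overexpresses p140Cap from a retroviral pBabe-puro vector after puromycin selection (3 libraries). The p140Cap cells were cloned from single cells and the clones pooled, and a description of how the mock cells were made was not found in the sources used. Effects of cloning, of the vector and its selection, and of p140Cap cannot be told apart. Each value is from RNA-Seq of poly(A) RNA, given as the number of reads per gene or as CPM (reads scaled to a common library size, adjusted by TMM factors).

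ATF4 is made from its mRNA when the initiation factor eIF2 is phosphorylated, as by the kinase GCN2 when uncharged tRNAs accumulate. With C/EBP partners, ATF4 then binds C/EBP-ATF response elements and raises genes that import amino acids, make non-essential ones, and charge tRNAs. In tumor cells some of these genes supply serine, glycine and one-carbon units for growth. ATF4 is largely controlled at translation, so the level of its mRNA does not give the level of the protein.

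Libraries ranged from 13770385 to 75506562 reads in total, and every mock library was deeper than every p140Cap library. Srcin1, the gene of p140Cap, was at 15 ± 1.96 CPM in mock and 2343 ± 153 CPM in p140Cap cells (SD, n = 3 each), and no library overlapped between the groups. The summed level of 8 epithelial markers was 5310 to 5710 CPM in the mock and 6260 to 6470 CPM in the p140Cap libraries, with Krt19 under 1 CPM throughout. That of 7 fibroblast markers was 9.97 to 10.5 CPM in mock and 11.3 to 14.1 CPM in p140Cap libraries, with Col1a2, Col3a1, Dcn and Lum at 0 reads, and that of 7 immune markers 2.08 to 2.34 and 3.23 to 4.09 CPM, with Ptprc, Cd3e, Adgre1 and 1 of the 2 rows of Itgam among those at 0 reads. Endothelial markers (4 genes) summed to 0.21 to 0.478 CPM in mock and 0.477 to 0.734 CPM in p140Cap libraries, with Kdr at 0 reads. The part of these small shifts in the results below was not tested.

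Most of the module was lower in p140Cap cells. Of the 43 genes, 41 had enough reads for a test across all genes (quasi-likelihood F test of edgeR, p adjusted by Benjamini-Hochberg, threshold 0.05), and of these 28 were lower, 7 were higher and 6 did not pass. That is 68.3% lower and 17.1% higher, against 35.9% lower and 35.2% higher (71.1% either way) over all 11800 genes tested. The median log2 fold change of p140Cap over mock was -0.33 for the 41 members and 0.00 for all genes tested. For 27 members every p140Cap library lay below every mock library, and for 7 every one lay above, where 37.2% and 36.3% of all genes tested did so (73.4% either way). Cth was the sole member called with a change of at least 1 log2 unit, and of all genes tested 5.04% were lower and 4.93% higher by that much. Under the alternative settings of the fit, 29.5% to 36.2% of the genes tested were lower and 25.5% to 35.8% higher. In bulk RNA, fewer cells that express a gene and less RNA per cell cannot be told apart.

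The subgroups differed in their counts. Among the synthetases 11 of 12 were lower and 1 was higher (median -0.38), and among the synthesis genes 9 of the 12 tested were lower and 3 were higher (median -0.74). Of the 7 transporters tested, 5 were lower and 0 were higher (median -0.33). Of the 10 stress regulators 3 were lower, 3 were higher and 4 were not called (median 0.09), and the 30% in each direction is near the shares of all genes tested. In single libraries, the median difference of the synthesis genes from the mean of the mock libraries, on the log2(CPM + 0.5) scale, was -0.76, -0.79 and -0.62 in the p140Cap libraries and between -0.05 and 0.04 in the mock libraries. For the synthetases it was -0.42, -0.39 and -0.35, for the transporters -0.36, -0.33 and -0.31, and for the stress regulators 0.08, 0.05 and 0.12. The order of these medians was the same in all 3 p140Cap libraries, but it rests on members of chromosome 19, without which the medians of the fitted changes were -0.41 for the synthesis genes, -0.42 for the transporters and -0.38 for the synthetases.

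**Figure D1:**
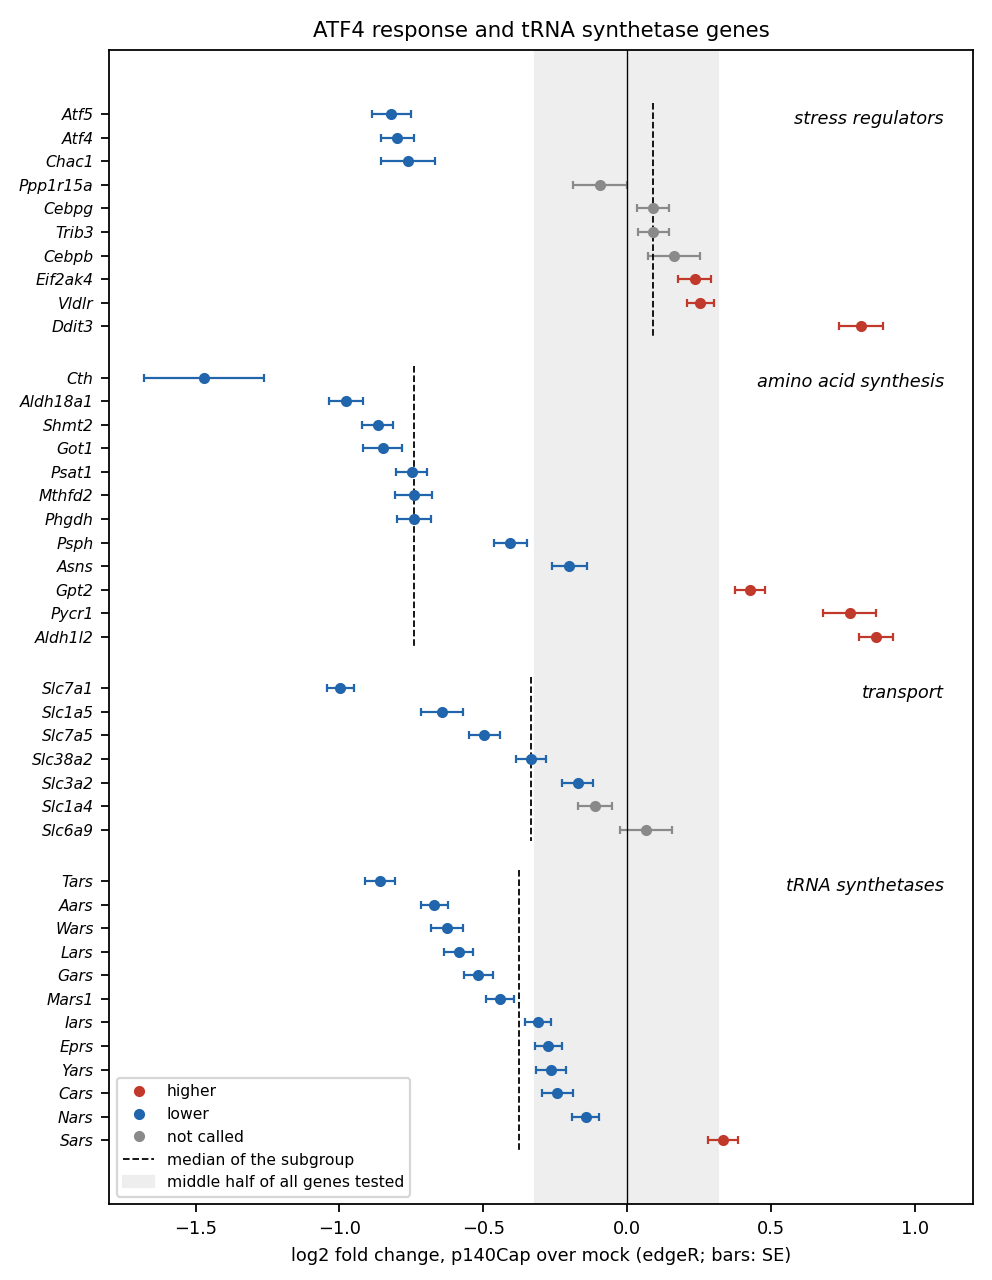
Log2 fold change of p140Cap over mock (x axis, edgeR) of the 41 members tested, by subgroup, with SE as bars, the median of each subgroup dashed and the range from the 25th to the 75th percentile of all genes tested shaded (-0.32 to 0.31). Synthesis genes lie mostly left of the shaded band with 3 genes right of it, and the stress regulators fall on both sides.

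**Figure D2:**
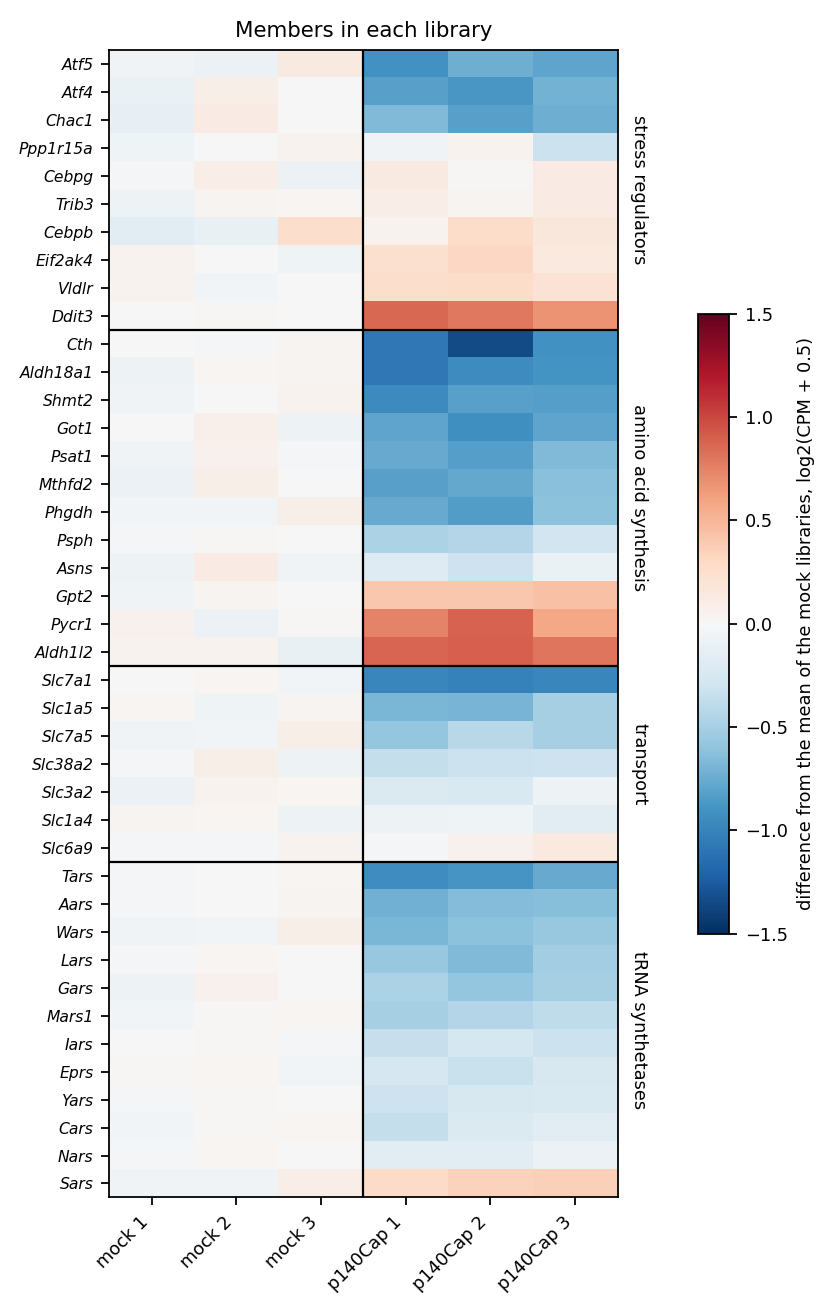
Difference of each member in each library from the mean of the mock libraries, in log2(CPM + 0.5) (color), with members in rows and the 6 libraries in columns. Most rows have one color across the 3 p140Cap libraries, and Cth, at 14, 10 and 15 reads, has the widest range among them.

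Promoters of these genes were read for the core of the element that ATF4 binds with C/EBP partners. The letters TGATGNAA, on either strand, were looked for in windows from 250 bases before to 50 bases after the start of each gene (RefSeq, GRCm38.p6). Windows were at hand for 34 of the 43 members, and 12 of these held a match (35.3%), against 4.51% of all genes with a window and 2.65% of the tested genes matched by symbol. The synthetases held it in 5 of 8 genes, the stress regulators in 3 of 10, the synthesis genes in 3 of 11 and the transporters in 1 of 5. Matches of 11 of these genes are given below in 30 bases of the gene's own strand, with the letters that match in capitals, because they are the sequence these genes share. Capitals that end in CATCA are a match on the other strand. A match is a description of letters, and binding was not measured.
Asns, lower (chr6:7693214-7693243, minus strand): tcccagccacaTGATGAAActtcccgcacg
Got1, lower (chr19:43524689-43524718, minus strand): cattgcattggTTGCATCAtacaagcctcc
Chac1, lower (chr2:119351038-119351067, plus strand): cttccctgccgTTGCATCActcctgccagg
Tars, lower (chr15:11399655-11399684, minus strand): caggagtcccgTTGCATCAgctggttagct
Gars, lower (chr6:55037960-55037989, plus strand): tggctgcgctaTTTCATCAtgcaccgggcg
Iars, lower (chr13:49682126-49682155, plus strand): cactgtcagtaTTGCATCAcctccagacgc
Yars, lower (chr4:129189895-129189924, plus strand): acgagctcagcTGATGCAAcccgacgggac
Slc1a4, not called (chr11:20332699-20332728, minus strand): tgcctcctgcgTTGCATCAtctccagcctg
Trib3, not called (chr2:152344028-152344057, minus strand): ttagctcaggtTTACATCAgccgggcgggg
Pycr1, higher (chr11:120643833-120643862, minus strand): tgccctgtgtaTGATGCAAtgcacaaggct
Vldlr, higher (chr19:27216809-27216838, plus strand): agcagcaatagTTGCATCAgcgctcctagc

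Members with the element moved both ways. Of the 12 with a match, 8 were lower, 2 were higher and 2 were not called (median log2 fold change -0.29), and of the 21 tested members with a window and no match, 13 were lower, 4 were higher and 4 were not called (median -0.33). Counted by row of the table, in which some symbols stand more than once, 31.6% of the 244 tested rows with a match were lower, and 36.0% of the 8879 without one. Tars and Pycr1 show this within the module, since both carry TTGCATCA or its reverse complement and had opposite changes. Their 250 bases before the start are printed here on the gene's strand, with the match in capitals.
Tars (chr15:11399659-11399908, minus strand): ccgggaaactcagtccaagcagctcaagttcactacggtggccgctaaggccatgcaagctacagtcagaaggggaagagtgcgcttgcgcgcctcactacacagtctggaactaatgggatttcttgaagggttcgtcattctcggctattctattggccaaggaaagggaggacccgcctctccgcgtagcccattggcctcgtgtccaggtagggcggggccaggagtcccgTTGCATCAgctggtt
Pycr1 (chr11:120643749-120643998, minus strand): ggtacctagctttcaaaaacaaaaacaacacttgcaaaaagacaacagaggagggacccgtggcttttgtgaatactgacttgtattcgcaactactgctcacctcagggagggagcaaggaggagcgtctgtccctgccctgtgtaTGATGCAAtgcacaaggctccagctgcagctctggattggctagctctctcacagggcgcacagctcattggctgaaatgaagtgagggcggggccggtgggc

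Among the regulators, Atf4 and its relative Atf5 were lower. Atf4 (chr15:80255184-80257545) was at 281, 318 and 301 CPM in the mock libraries and 170.2, 164 and 184 CPM in the p140Cap libraries. The groups did not overlap, and Atf4 had a log2 fold change of -0.80 in p140Cap cells (SE 0.06, adjusted p = 2.71e-09), or a level 1.74 times higher in mock cells. Per kilobase of the canonical transcript, the level of Atf4 in mock cells was 172 CPM per kilobase, second to Psat1 with 233, while per kilobase of all annotated exons Atf4 was first, with 126 against 104. Atf5 (chr7:44812256-44816658), a related factor whose translation also rises when eIF2 is phosphorylated, was at 77.8, 76.1 and 88.7 CPM in mock and 42.7, 48.3 and 46.3 CPM in p140Cap libraries (log2 fold change -0.82, SE 0.07, adjusted p = 1.23e-08). Exons of Nup62 and Il4i1 overlap Atf5 on the other strand, and the sources used here do not give how the counting treated strand. The same holds for further members, among them Psph, Eif2ak4, Shmt2, Aldh1l2, Pycr1, Cebpb, Ppp1r15a, Slc3a2, Slc6a9 and Yars, whose exons overlap Cct6a, Srp14, Ndufa4l2, Nopchap1, Myadml2os, Peds1, Tulp2, Snhg1, Ccdc24 and S100pbp on the other strand, and Exosc6 overlaps Aars on the same strand.

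Ddit3, which encodes the stress factor CHOP, moved the other way. It was at 10.6, 10.8 and 10.6 CPM in the mock libraries and 19.8, 18.8 and 17.3 CPM in the p140Cap libraries (chr10:127290793-127296291). The lowest p140Cap library lay above all mock libraries, and the log2 fold change reached 0.81 (SE 0.08, adjusted p = 6.6e-08). Within each library, Ddit3 had 0.0377, 0.0338 and 0.0353 reads per read of Atf4 in mock cells and 0.117, 0.115 and 0.0944 in p140Cap cells, a ratio that no scaling of libraries can change and that was chosen after its values were seen. An exact permutation test on this ratio gave p = 0.1, the smallest that 3 against 3 libraries allow. Over 574 bases, 58.6% of its transcript, Ddit3 shares its sequence with exons of Mars1 on the other strand, so that reads there could be of either gene if strand was not used. Mars1 fell in the same libraries, as given below.

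Among targets of the stress branch, Chac1 was lower and Trib3 and Ppp1r15a were not called. Chac1, which degrades glutathione, fell from 16 ± 1.42 CPM to 9.38 ± 0.516 CPM (SD, n = 3 each; log2 fold change -0.76, SE 0.09, adjusted p = 1.67e-06). Trib3, a pseudokinase that dampens ATF4, was at 50.9, 55.4 and 54.9 CPM in mock and 57.6, 55.2 and 58.3 CPM in p140Cap libraries and was not called (log2 fold change 0.09, 95% interval -0.02 to 0.20, adjusted p = 0.148). Ppp1r15a, the GADD34 subunit that returns eIF2 to its unphosphorylated form, was not called either (log2 fold change -0.10, 95% interval -0.29 to 0.10).

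The C/EBP partners were not called. Cebpg was at 86.4, 93.4 and 82.2 CPM in mock and 95.8, 87.9 and 95 CPM in p140Cap libraries (log2 fold change 0.09, 95% interval -0.03 to 0.21). Cebpb was at 61.1, 62.9 and 81.8 CPM in mock and 70.5, 82.1 and 76.4 CPM in p140Cap libraries (log2 fold change 0.16, 95% interval -0.03 to 0.35), and mock replicate 3 stood above the other mock libraries. Without that library Cebpb was called higher at 0.30 (adjusted p = 0.000487, edgeR), and without mock replicate 2 Cebpg was called higher at 0.14 (adjusted p = 0.0428, edgeR).

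Eif2ak4, which encodes GCN2, the sensor of uncharged tRNA, was slightly higher in p140Cap cells. It was at 50.3, 48.4 and 46.2 CPM in mock and 57.2, 59.9 and 53.6 CPM in p140Cap libraries, without overlap (log2 fold change 0.23, SE 0.06, adjusted p = 0.00148). Vldlr, a lipoprotein receptor that ATF4 can raise, was at 461, 433 and 442 CPM in mock and 535, 539 and 519.6 CPM in p140Cap libraries (log2 fold change 0.25, SE 0.05, adjusted p = 0.00013). Vldlr lies on chromosome 19, whose 424 tested genes had a median of -0.34, and it went against that median.

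Transcripts of serine synthesis were lower at each step. Phgdh, which takes 3-phosphoglycerate out of glycolysis, was at 98.6, 98.9 and 108 CPM in mock and 60.2, 56.5 and 66 CPM in p140Cap libraries (log2 fold change -0.74, SE 0.06, adjusted p = 1.23e-08). Psat1, the next enzyme, was at 589, 636 and 604 CPM in mock and 359, 343 and 386 CPM in p140Cap libraries (chr19:15905123-15925059; log2 fold change -0.75, SE 0.05, adjusted p = 2.52e-09). Psph, the last enzyme, fell less, from 59.6 ± 0.892 CPM to 45 ± 3.2 CPM (SD, n = 3 each; log2 fold change -0.41, SE 0.06). For each of these genes the groups did not overlap. Phgdh has annotated copies of at least 95% identity over at least 30% of its transcript, at 10 other places, which makes the assignment of its reads uncertain. The same holds for Iars, with 1 such copy.

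Of the 3 members that use serine for glycine and one-carbon units in mitochondria, 2 were lower and 1 was higher. Shmt2, which turns serine into glycine in mitochondria, was at 129, 134 and 139 CPM in mock and 68.9, 75.9 and 75.4 CPM in p140Cap libraries (log2 fold change -0.87, SE 0.05, adjusted p = 4.29e-10). Mthfd2, the mitochondrial methylene-tetrahydrofolate dehydrogenase, was at 63.2, 71.1 and 67.1 CPM in mock and 37.8, 39.1 and 43.3 CPM in p140Cap libraries (log2 fold change -0.74, SE 0.06, adjusted p = 2.19e-08). Aldh1l2, which oxidizes the formyl group of mitochondrial folate to CO2, rose from 30.7, 30.6 and 27.4 CPM to 54.7, 55.3 and 51.8 CPM (chr10:83487447-83534146; log2 fold change 0.86, SE 0.06, adjusted p = 1.87e-09). In reads of the same library, Mthfd2 stood at 2.06, 2.32 and 2.45 times Aldh1l2 in mock cells and at 0.692, 0.707 and 0.837 times in p140Cap cells. This pair was chosen after its values were seen, and an exact permutation test gave p = 0.1, the smallest possible here.

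The genes of proline synthesis were likewise split between its first and last enzymes. Aldh18a1, which makes the pyrroline-5-carboxylate precursor from glutamate, was at 76.3, 82.5 and 83.2 CPM in mock and 38, 41.8 and 43.1 CPM in p140Cap libraries (chr19:40550257-40588463; log2 fold change -0.98, SE 0.06, adjusted p = 4.29e-10). Pycr1, which reduces it to proline in mitochondria, was at 8.89, 8 and 8.65 CPM in mock and 14.6, 16.1 and 13 CPM in p140Cap libraries (chr11:120638998-120643748; log2 fold change 0.77, SE 0.09, adjusted p = 1.05e-06). The ratio of Aldh18a1 to Pycr1 reads, also chosen after its values were seen, was 8.58, 10.3 and 9.62 in the mock libraries and 2.61, 2.59 and 3.32 in the p140Cap libraries.

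Asparagine synthetase changed little for a gene of this module. Asns was at 115, 131 and 116 CPM in mock and 105, 97.3 and 112 CPM in p140Cap libraries, so that all p140Cap libraries lay below the mock libraries by a narrow margin (log2 fold change -0.20, SE 0.06, adjusted p = 0.00774). The aspartate and alanine transaminases among the members went apart, with the cytosolic aspartate enzyme Got1 falling from 40.1 ± 2.24 to 22.2 ± 1.08 CPM and the mitochondrial alanine enzyme Gpt2 rising from 41.4 ± 1.34 to 55.5 ± 0.877 CPM (SD, n = 3 each). Their log2 fold changes were -0.85 (SE 0.07, adjusted p = 7.7e-09) and 0.43 (SE 0.05, adjusted p = 1.6e-06). The isozymes outside the module were not called, with Got2 at -0.01 (SE 0.05) and Gpt at -0.12 (SE 0.12). Got2 has near-identical annotated copies, so its reads are uncertain.

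Transcripts of transsulfuration, which makes cysteine from homocysteine, were scarce. Reads of Cth, which releases cysteine in its last step, numbered 190, 97 and 86 in mock and 14, 10 and 15 in p140Cap libraries. Its level was 2.5 ± 0.0736 CPM in mock and 0.902 ± 0.211 CPM in p140Cap cells (SD, n = 3 each), the lowest of the tested members per kilobase. Its log2 fold change, -1.47 (SE 0.21, adjusted p = 8.62e-06), was the largest decrease of the module and rests on few reads. It lay between -1.63 and -1.31 under the alternatives. Cbs, the enzyme before it, had 0 reads in every library, which allows a level of up to 0.02 CPM over the mock and 0.069 CPM over the p140Cap libraries (3 reads per group, counting error only).

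**Figure D3:**
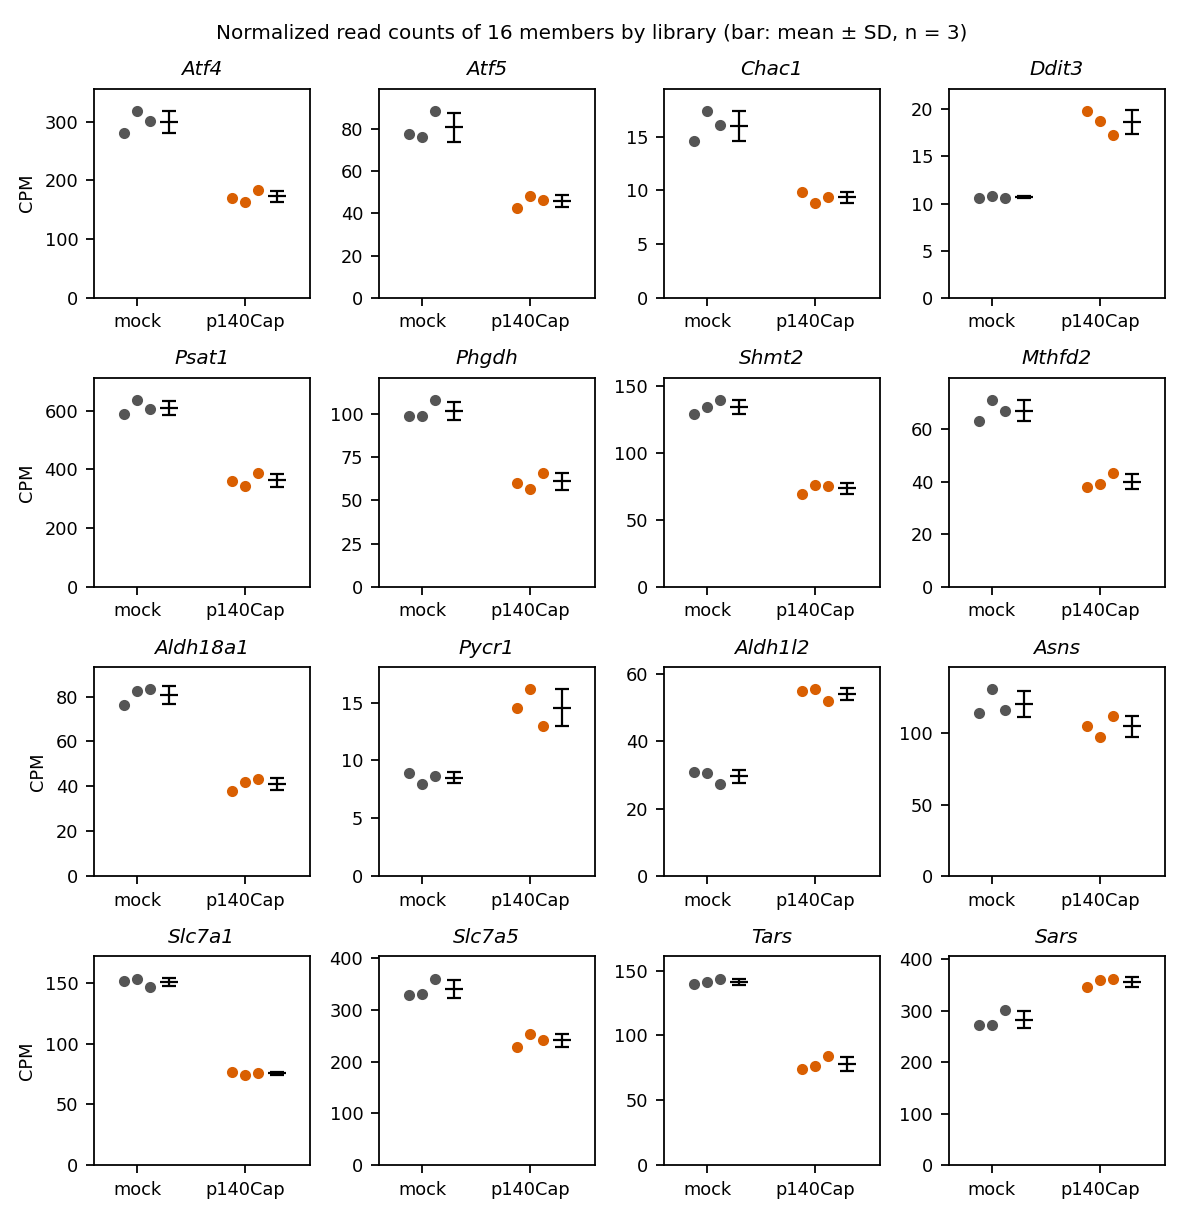
CPM (y axis, from 0) of 16 members in the 3 mock and 3 p140Cap libraries, each point 1 library, with the mean and SD beside them. Atf4, Psat1 and Tars are lower in all 3 p140Cap libraries, while Ddit3, Pycr1, Aldh1l2 and Sars are higher.

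Some of the synthesis and transport genes lie on chromosome 19, where 65.1% of the tested genes were lower, against 30.4% to 39.4% on each of the other autosomes and X. These are Psat1, Aldh18a1, Got1 and Slc3a2, and the part of the chromosome in their decrease was not tested. Leaving out the members on chromosome 19, the median of the synthesis genes was -0.41 with 6 lower and 3 higher, and that of the transporters was -0.42 with 4 lower.

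Amino acid transporters were lower or not called. Slc7a1, the carrier of arginine and lysine, was at 151, 153 and 147 CPM in mock and 76.3, 74.1 and 75.9 CPM in p140Cap libraries (chr5:148327410-148399904). The decrease, -0.998 on the log2 scale (SE 0.05, adjusted p = 2.09e-11), had the smallest p of the module. Slc7a5, the LAT1 carrier of large neutral amino acids, was at 329, 331 and 360.1 CPM in mock and 228, 254 and 241 CPM in p140Cap libraries (log2 fold change -0.50, SE 0.05, adjusted p = 3.88e-07). Slc3a2, the heavy chain that LAT1 needs at the membrane, was at 214, 236 and 232 CPM in mock and 195, 194 and 215 CPM in p140Cap libraries, and p140Cap replicate 3 lay within the mock range (log2 fold change -0.17, SE 0.05, adjusted p = 0.0092). Without p140Cap replicate 1, Slc3a2 was no longer called (adjusted p = 0.0511, edgeR).

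The glutamine carriers were lower as well. Slc1a5 (ASCT2) fell from 27.5 ± 1.13 to 17.6 ± 1.39 CPM (SD, n = 3 each; log2 fold change -0.64, SE 0.07, adjusted p = 5.92e-07), and Slc38a2 (SNAT2), which cells raise when amino acids are short, from 311 ± 18.4 to 247 ± 3.85 CPM (log2 fold change -0.33, SE 0.05, adjusted p = 1.87e-05). Slc38a1 (SNAT1) had 1 read in mock replicate 1 and 0 reads in the other libraries, and was not tested. Slc1a4, a carrier of alanine and serine, was not called, with a log2 fold change of -0.11 (95% interval -0.24 to 0.01), although it was called without mock replicate 3 (-0.15, adjusted p = 0.029, edgeR). Slc6a9, a glycine carrier, was at 8.4 ± 0.268 CPM in mock and 8.78 ± 0.545 CPM in p140Cap cells, with a log2 fold change of 0.07 (95% interval -0.13 to 0.26).

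tRNA synthetases, which load each amino acid onto its tRNA, all passed the test, with 11 of 12 lower. Tars, for threonine, was at 139, 141 and 144 CPM in mock and 74.1, 76.1 and 83.8 CPM in p140Cap libraries (chr15:11383663-11399658; log2 fold change -0.86, SE 0.05, adjusted p = 4.14e-10). Aars, for alanine, was at 235, 239 and 246 CPM in mock and 146, 152 and 154 CPM in p140Cap libraries (log2 fold change -0.67, SE 0.05, adjusted p = 2e-09). They were followed by Wars at -0.63 (SE 0.06), Lars at -0.59 (SE 0.05) and Gars at -0.52 (SE 0.05), for tryptophan, leucine and glycine.

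Sars, for serine, was the sole synthetase of the 12 that was higher. It was at 273, 273 and 302 CPM in mock and 346, 359 and 363 CPM in p140Cap libraries, without overlap (chr3:108424864-108445259). The change, 0.33 on the log2 scale (SE 0.05, adjusted p = 2.34e-05), lay between 0.30 and 0.38 under the alternatives. Sars thus stood opposite to the genes of serine synthesis in the same libraries.

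The members that belong to the multi-enzyme synthetase complex, Eprs, Iars, Lars and Mars1, were lower, and had log2 fold changes of -0.27 (SE 0.05), -0.31 (SE 0.05), -0.59 (SE 0.05) and -0.44 (SE 0.05). The complex's synthetases outside the module were mixed. Rars (-0.40, SE 0.06) and Kars (-0.22, SE 0.05) were lower, Qars (0.17, SE 0.04) was higher and Dars (-0.07, SE 0.05) was not called. Mars1, the partner that overlaps Ddit3, was at 146, 152 and 153 CPM in mock and 106, 111 and 115 CPM in p140Cap libraries. Cars was at -0.24 (SE 0.05) and Yars at -0.26 (SE 0.05). Nars, the most abundant of the 12 with a level of 150 CPM per kilobase of canonical transcript in mock and 135 in p140Cap cells, had the smallest change of the 12 (log2 fold change -0.14, SE 0.05, adjusted p = 0.0113), and it was no longer called without p140Cap replicate 1 (adjusted p = 0.0632, edgeR).

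Synthetases outside the ATF4 module were examined in the same way. Of 8 other cytosolic synthetase genes, 6 were lower and 1 was higher (median -0.32), with the largest changes in Farsa at -0.51 (SE 0.05, adjusted p = 2.04e-07), Hars at -0.47 (SE 0.05) and Farsb at -0.44 (SE 0.06). Qars, for glutamine, was the higher one, at 0.17 (SE 0.04, adjusted p = 0.00297), and is named after its values were seen. Of 17 mitochondrial synthetase genes, 9 were lower, 1 was higher and 7 were not called (median -0.14). The 58.8% called is below the 71.1% of all genes tested, with 52.9% lower against 35.9%. Yars2 at -0.84 (SE 0.07), Sars2 at -0.83 (SE 0.10) and Mars2 at -0.80 (SE 0.08) had decreases near that of Tars. Lars2 varied widely, with 25004, 17453 and 5900 reads in mock and 4090, 4664 and 5730 in p140Cap libraries, and was not called (log2 fold change 0.09, SE 0.21). Whether the sets differ was not tested. Of the scaffold proteins of the cytosolic complex, Eef1e1 fell by 0.80 (SE 0.07) and Aimp2 by 0.55 (SE 0.06) on the log2 scale, and Aimp1 was at -0.12 (adjusted p = 0.0705). Transcripts of Yars2, Mars2 and Aimp2 share sequence with those of Dnm1l, Boll and Eif2ak1 in the annotation, so that reads there are uncertain.

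**Figure D4:**
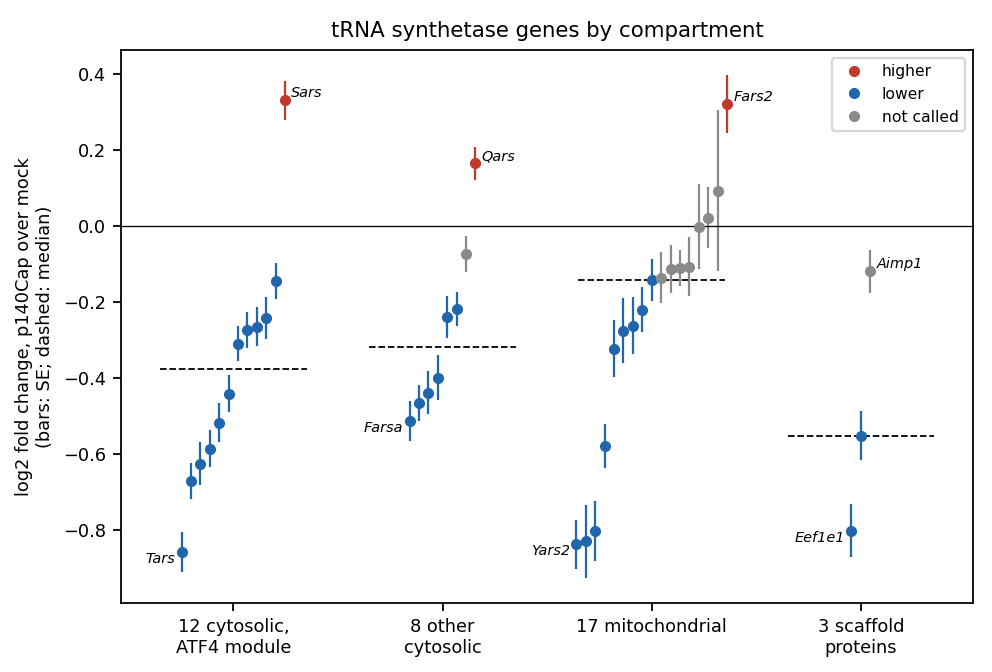
Log2 fold change of p140Cap over mock (y axis, edgeR, SE as bars) of tRNA synthetase genes, as 12 cytosolic genes of the ATF4 module, 8 other cytosolic genes, 17 mitochondrial genes and 3 scaffold genes, with medians dashed. Most points lie below 0 in each set, and Sars, Qars and Fars2 are the genes called higher.

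Upstream of ATF4, most genes of eIF2 and its regulators were lower, but no eIF2 kinase was. Of 13 genes of eIF2, its exchange factor eIF2B, other eIF2 kinases, a phosphatase subunit and Gcn1, 10 were lower, 1 was higher and 2 were not called (median -0.27), or 76.9% lower and 7.69% higher against 35.9% and 35.2% of all genes tested. Eif2b3 was at -1.002 (SE 0.09, adjusted p = 7.03e-08), Eif2s1, the subunit that is phosphorylated, at -0.72 (SE 0.06, adjusted p = 9.84e-09), and Eif2s2, with a near-identical annotated copy, at -0.66 (SE 0.06). The one that rose was Eif2ak3, which encodes the endoplasmic reticulum kinase PERK, at 0.48 (SE 0.05, adjusted p = 3.61e-07), named after its values were seen. The genes not called were the kinases Eif2ak1, at -0.05 (SE 0.05), and Eif2ak2, at 0.07 (SE 0.06).

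Of 16 other ATF4 targets, 13 were tested, and 4 were higher, 4 were lower and 5 were not called (median -0.06). That is 30.8% in each direction, near the 35.2% higher and 35.9% lower of all genes tested. Nars2, lower at -0.28 (SE 0.09), is counted both here and among the mitochondrial synthetases above. Ddit4, which restrains mTORC1 under stress, had the largest change, from 266 ± 25.1 CPM to 517 ± 37.7 CPM (SD, n = 3 each; log2 fold change 0.96, SE 0.07, adjusted p = 1.89e-09). Nupr1, a stress-induced chromatin protein, rose by 0.80 (SE 0.06) on the log2 scale, and Xpot, which exports tRNAs from the nucleus and also has such a copy, was at -0.61 (SE 0.05).

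Enzymes and carriers of the same pathways outside the module were also counted. Of 20 other genes of serine, folate and amino acid metabolism, 18 were tested, with 9 lower and 3 higher (median -0.16), or 50% and 16.7% against 35.9% and 35.2% of all genes tested. The cytosolic folate enzyme Mthfd1 was at -1.37 (SE 0.05, adjusted p = 1.63e-12) and Gcsh, of the glycine cleavage system, at -1.07 (SE 0.07, adjusted p = 1.07e-09), both lower than any member but Cth. Ahcy was at -1.13 (SE 0.20), but it shares 99.7% of 2083 bases with Ahcyl, so its reads are uncertain. Of 17 other amino acid transporters, 10 were tested, with 5 higher and 3 lower, or 50% and 30% against the same shares. Their median was 0.15, but its sign turned with DESeq2 (-0.03) and with no filter on low counts (-0.51). Reads of Slc36a4 numbered 181, 94 and 74 in mock and 2, 3 and 1 in p140Cap libraries (log2 fold change -4.04, SE 0.33, adjusted p = 1.42e-08), and Slc7a6 was at -1.69 (SE 0.09, adjusted p = 1.35e-10). Slc43a2, a carrier of large neutral amino acids, rose by 0.59 (SE 0.06, adjusted p = 1.09e-07) on the log2 scale.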

How the data were processed

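TuBo cells were profiled by RNA-Seq in 3 mock and 3 p140Cap libraries. The authors deposited read counts per gene as whole numbers, without normalization and with replicates kept apart. The submitters' processing notes name STAR 2.5, RSEM and the build mm10, and the paper's methods name stranded libraries and docker4seq. The annotation and the strand setting of the counting are not stated there. The paper's data availability text names the mouse genome GRCm39, which differs from mm10, and which build gave the counts was not settled here. Nothing says that the replicates were separate cultures, so p-values measure the spread between these libraries, which may be technical.

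The counts were analysed with edgeR 4.0.16 in R 4.3.3 (TMM factors, filterByExpr by group, quasi-likelihood test, Benjamini-Hochberg adjustment, condition as the sole term), which tested 11800 genes. The SE is the absolute log2 fold change over the square root of F, and intervals are 95%. The fit was tested on simulated data. Libraries held 13770385 to 75506562 reads, so that 1 CPM equals 13.6 to 76.5 reads. Alternatives were DESeq2 1.42.0, limma-voom (limma 3.58.1), RLE factors, no filter, at least 10 reads in every library, thinning to the smallest total, leaving out each library, a replicate block and leaving out members on chromosome 19. All members could be named, and of each other list the called genes of largest change, at most 3. A few further genes of those lists are named for their role or their values. The members and lists were chosen with earlier results of these data known. Positions and promoters are from RefSeq GRCm38.p6, the build of mm10, matched by symbol. Transcript lengths, overlaps and copies (BLAST 2.17.0, canonical transcripts) are from GENCODE on GRCm39, matched by Ensembl identifier. One promoter sequence and one marker gene are not reported here.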

Additional observations from a re-analysis of the deposited data

How the results depend on the processing

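Over the alternatives run, 24 to 29 members were lower and 6 to 8 were higher, against 28 and 7; the 24 and 6 leave out the members on chromosome 19. The median of all members was -0.40 with no filter and between -0.38 and -0.30 when 1 library was left out. For the synthesis genes it was -0.41 without chromosome 19. For the transporters it was -0.26 with DESeq2, -0.45 with no filter, -0.42 without chromosome 19, and between -0.38 and -0.29 when 1 library was left out. With no filter, the medians of lists that had untested genes also include genes of very few reads, as Slc38a1. For the eIF2 genes the median was -0.30 with no filter, although all 13 were already tested and none was added, and -0.31 to -0.27 with 1 library left out. For the other ATF4 targets it was 0.02 after thinning, and -0.07 to -0.01 with 1 library left out. For the other serine, folate and amino acid enzymes it was -0.13 with DESeq2, and -0.21 to -0.14 with 1 library left out. The median of the other transporters changed most, at -0.03 with DESeq2, -0.51 with no filter and 0.21 with at least 10 reads in every library. Mitochondrial synthetases had a median of -0.20 to -0.14, with 1 to 2 called higher, when 1 library was left out, the 2 without mock replicate 2. The cause of these shifts was not tested. Among single genes, Ppp1r15a ranged from -0.18 to 0.00 when 1 library was left out and changed sign, at 0.00, without p140Cap replicate 3 (adjusted p = 0.991, edgeR), while Cebpb, Cebpg, Slc1a4, Slc3a2 and Nars changed call when 1 library was left out, as given above. Same-numbered libraries did not deviate together (r = -0.030, -0.106 and -0.057), so no shared effect of the replicate number was seen. Whether a number marks a shared culture or day is not stated, and these correlations cannot settle it. A replicate block left 28 members lower and 7 higher, and 3980 genes higher and 4054 lower among all genes tested. Cbs, with 0 reads, and Slc38a1, with 1 read over all libraries, were not tested.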
